A study of Mus musculus with 6 samples.

Results

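The accessible sites at Hat1 and at 6 other genes that handle histones H3 and H4 on their way into chromatin, Nasp, Asf1a, Asf1b, Chaf1a, Chaf1b and Rbbp4, were compared between genotypes. A site was a member when its midpoint lay in a fixed mm10 window around 1 of the 7 genes. Of 229903 tested sites, 44 were members: 5 at Hat1, 4 at Nasp, 6 at Asf1a, 2 at Asf1b, 14 at Chaf1a, 8 at Chaf1b and 5 at Rbbp4. The rule uses position and no measured value, although the genes were chosen with earlier results of these data known. Chromatin accessibility was profiled by ATAC-Seq, in which a transposase cuts open chromatin and inserts adaptors for sequencing, in primary mouse embryonic fibroblasts (pMEFs). These cells were grown from embryos whose internal organs had been removed, on the C57bl6 strain background. There were 3 HAT1 WT lines (HAT1+/+) and 3 HAT1 KO lines (HAT1-/-, the knockout), with no treatment in either group. For each site the values used were the authors' mean per genotype, as the log2 of normalized reads, so no line can be seen singly. There is therefore no spread between lines, no test and no p-value for any difference given here, and the depth of each line is unknown.

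HAT1 is the acetyltransferase that marks newly made histone H4 on lysines of its tail before the histone is deposited. It works in a complex with RBBP7, the paralogue of RBBP4, and the H3-H4 chaperone NASP binds the same new histones. ASF1A and ASF1B receive H3-H4 dimers and hand them to CAF-1, whose CHAF1A and CHAF1B subunits, with RBBP4, deposit them on newly replicated DNA. Accessibility at these genes therefore concerns the genes of the pathway and not the activity of its proteins.

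At the promoters of the 7 genes the genotypes were close. The strongest site within 1 kb of an annotated start of each gene differed by a log2 of -0.21 to 0.21, with HAT1 KO higher at 4 genes, lower at 2 and equal at 1, Chaf1a, which came to 0.06 when the differences were centred on the median of all sites. Of the 44 sites, 2 were lower in HAT1 KO by a log2 of at least 1 (here called lower) and 0 were higher by as much (called higher). Over all tested sites 5.11% were lower and 2.82% were higher by that measure. The lower pair were a site on exon 7 of Hat1, at a log2 difference of -2.69, and a site inside Chaf1a, at -1.14. Both were weak sites away from the main promoters, the Chaf1a site being within 1 kb of the start of a shorter transcript, and the genes are taken in turn by role.

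The sequences just upstream of the starts are shown because a promoter site was the strongest tested site overlapping each gene. In the windows of Chaf1a and Nasp, promoters of neighbours were stronger. For Nasp, Asf1a, Asf1b, Chaf1a, Chaf1b and Rbbp4 the 250 bases before the GENCODE start lay inside tested sites and in no annotated exon, while those of Hat1 lay outside its promoter site and are not shown. They are given 5′ to 3′ on the strand of the gene, from GRCm38 (mm10). Capitals mark CCAAT or its complement ATTGG (the NF-Y letters), GGGCGG or CCGCCC (SP/KLF), CCGGAAG or CTTCCGG (ETS), and TGANTCA (AP-1). Matches that adjoin are run together.
Nasp (chr4:116627942-116628191, - strand): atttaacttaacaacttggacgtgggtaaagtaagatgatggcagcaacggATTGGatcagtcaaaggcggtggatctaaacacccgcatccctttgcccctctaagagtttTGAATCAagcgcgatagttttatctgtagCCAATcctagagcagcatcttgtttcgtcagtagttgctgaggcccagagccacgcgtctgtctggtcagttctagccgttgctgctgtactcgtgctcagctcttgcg
Asf1a (chr10:53596507-53596756, + strand): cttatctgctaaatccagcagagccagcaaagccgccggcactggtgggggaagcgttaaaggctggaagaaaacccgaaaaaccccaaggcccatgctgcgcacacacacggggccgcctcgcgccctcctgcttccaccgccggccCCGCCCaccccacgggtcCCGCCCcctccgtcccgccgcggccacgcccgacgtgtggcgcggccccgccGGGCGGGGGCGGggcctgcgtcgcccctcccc
Asf1b (chr8:83955257-83955506, + strand): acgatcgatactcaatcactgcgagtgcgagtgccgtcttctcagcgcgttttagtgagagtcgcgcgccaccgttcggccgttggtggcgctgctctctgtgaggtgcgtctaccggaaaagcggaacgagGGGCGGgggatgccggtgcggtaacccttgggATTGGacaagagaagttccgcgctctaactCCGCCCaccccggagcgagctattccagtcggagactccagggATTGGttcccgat
Chaf1a (chr17:56040189-56040438, + strand): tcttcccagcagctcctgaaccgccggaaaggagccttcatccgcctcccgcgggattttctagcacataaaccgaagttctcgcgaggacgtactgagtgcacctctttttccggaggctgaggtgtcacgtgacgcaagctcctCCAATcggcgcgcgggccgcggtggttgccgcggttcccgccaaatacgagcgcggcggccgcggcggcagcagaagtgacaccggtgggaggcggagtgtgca
Chaf1b (chr16:93883651-93883900, + strand): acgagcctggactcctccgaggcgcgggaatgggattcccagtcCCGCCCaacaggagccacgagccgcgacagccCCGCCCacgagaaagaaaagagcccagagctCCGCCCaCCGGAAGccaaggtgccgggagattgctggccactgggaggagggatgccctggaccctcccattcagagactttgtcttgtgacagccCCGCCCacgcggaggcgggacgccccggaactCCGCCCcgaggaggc
Rbbp4 (chr4:129335371-129335620, - strand): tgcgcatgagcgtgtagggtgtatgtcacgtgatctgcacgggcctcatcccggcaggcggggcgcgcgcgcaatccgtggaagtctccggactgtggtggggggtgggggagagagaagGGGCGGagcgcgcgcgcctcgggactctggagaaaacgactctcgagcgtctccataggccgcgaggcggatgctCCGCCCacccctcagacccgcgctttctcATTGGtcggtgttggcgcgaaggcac
Among the stretches shown, Nasp had the lowest GC content, 49.2%, and the fewest CpGs, 12, and it alone held an AP-1 match. It held 2 matches of the NF-Y letters, as Asf1b did, and no SP/KLF match, as was so at Chaf1a. Asf1a held 4 SP/KLF matches in this stretch, the nearest 26 bases before the start, and no CCAAT. Chaf1b held 5 SP/KLF matches and 1 ETS match. Asf1b carried 2 ATTGG and 2 SP/KLF matches, Rbbp4 carried 1 ATTGG and 2 SP/KLF matches, and Chaf1a a single CCAAT. These are matches of letters and were not tested as binding sites.

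In the RefSeq promoters, which run from 250 bases before to 50 bases after each RefSeq start on GRCm38.p6, 7 of 7 members were matched by symbol. CCAAT on either strand was in 6 of 7, against 37.41% of 32851 promoters, and GGGCGG on either strand was in 6 of 7, against 35.66%. The ETS letters were in 2 of 7, against 8.86%. TGANTCA, the AP-1 letters, was in 1 of 7, at Nasp, against 7.81%. The E2F letters searched (TTTCCCGC, TTTCGCGC, TTTGCCGC and TTTGGCGC), the NRF1 letters (GCATGCGC) and the CRE letters (TGACGTCA), all on both strands, were in 0 of 7, against 2.26%, 2.71% and 1.79%. Only exact matches were counted. Near matches to the E2F letters, such as those in the Chaf1a and Rbbp4 stretches printed above, were left out. The E2F count of 0 therefore does not show that these promoters lack E2F sites. The member promoters were rich in GC, with a median of 66.67% and 31 CpGs, against 52.67% and 7 over all promoters.

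Hat1 (ENSMUSG00000027018.11, chr2:71388958-71441622, + strand) codes for the acetyltransferase that the KO lines lack, and its promoter was accessible in both genotypes. The promoter site (chr2:71388982-71389698), which begins just inside exon 1, had a log2 level of 7.69 in HAT1 WT and 7.90 in HAT1 KO, or 206.5 against 238.9 normalized reads. The difference of 0.21 was the highest of the 7 promoter sites, but summed over all sites within 3 kb of an annotated Hat1 start, which takes in the exon 7 site near the start of a shorter transcript, it was 0.08, and Asf1b was then the highest at 0.12. An intronic site 27.84 kb into the gene stood at 3.65 and 4.13. Upstream, an intergenic site at -16.96 kb from the start stood at 4.63 and 4.76.

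The site on exon 7 of Hat1 went the other way. Its log2 level was 4.46 in HAT1 WT and 1.77 in HAT1 KO, or 22.0 against 3.41 normalized reads, 6.45-fold higher in HAT1 WT. The site covers the whole 105-base coding exon with 27 bases of intron before it and 33 after it. It is printed with the exon in capitals, because it carries the largest difference of the 44 sites.
Hat1 exon 7 site (chr2:71421184-71421348, + strand): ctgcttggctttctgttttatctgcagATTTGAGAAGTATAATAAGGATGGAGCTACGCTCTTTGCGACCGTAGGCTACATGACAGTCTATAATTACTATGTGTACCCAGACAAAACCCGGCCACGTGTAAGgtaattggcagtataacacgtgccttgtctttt
Of all tested sites, 269 (0.117%) had a log2 difference as low or lower. Among the 80300 sites with a mean log2 level of 3 to 4, which includes this one, 82 (0.102%) did. In that range of levels 5.28% of all sites were lower and 2.80% higher by at least 1, and of the 12 members in it 2 were lower and 0 higher. The nearest tested sites on either side did not share the difference: the intronic site 4.246 kb before it was at 0.48 and the next site 31.72 kb beyond it at -0.17. The remaining Hat1 member, an intergenic site at -6.88 kb from the start with 78.0% of its bases in annotated repeats, stood at 3.74 and 3.13.

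Summed over its 5 sites Hat1 had 279 normalized reads in HAT1 WT and 296 in HAT1 KO, a ratio of 1.06, and without the exon 7 site the ratio was 1.14. Of the 11 exons of the coding transcript, exons 1 and 7 were overlapped by a tested site. The primers with which the study genotyped its embryos match GRCm38 on either side of exon 3, which no tested site overlapped, so these values do not check the genotype of the lines. The exon 7 site lies outside that interval, 12.121 kb beyond exon 3.

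**Figure D1:**
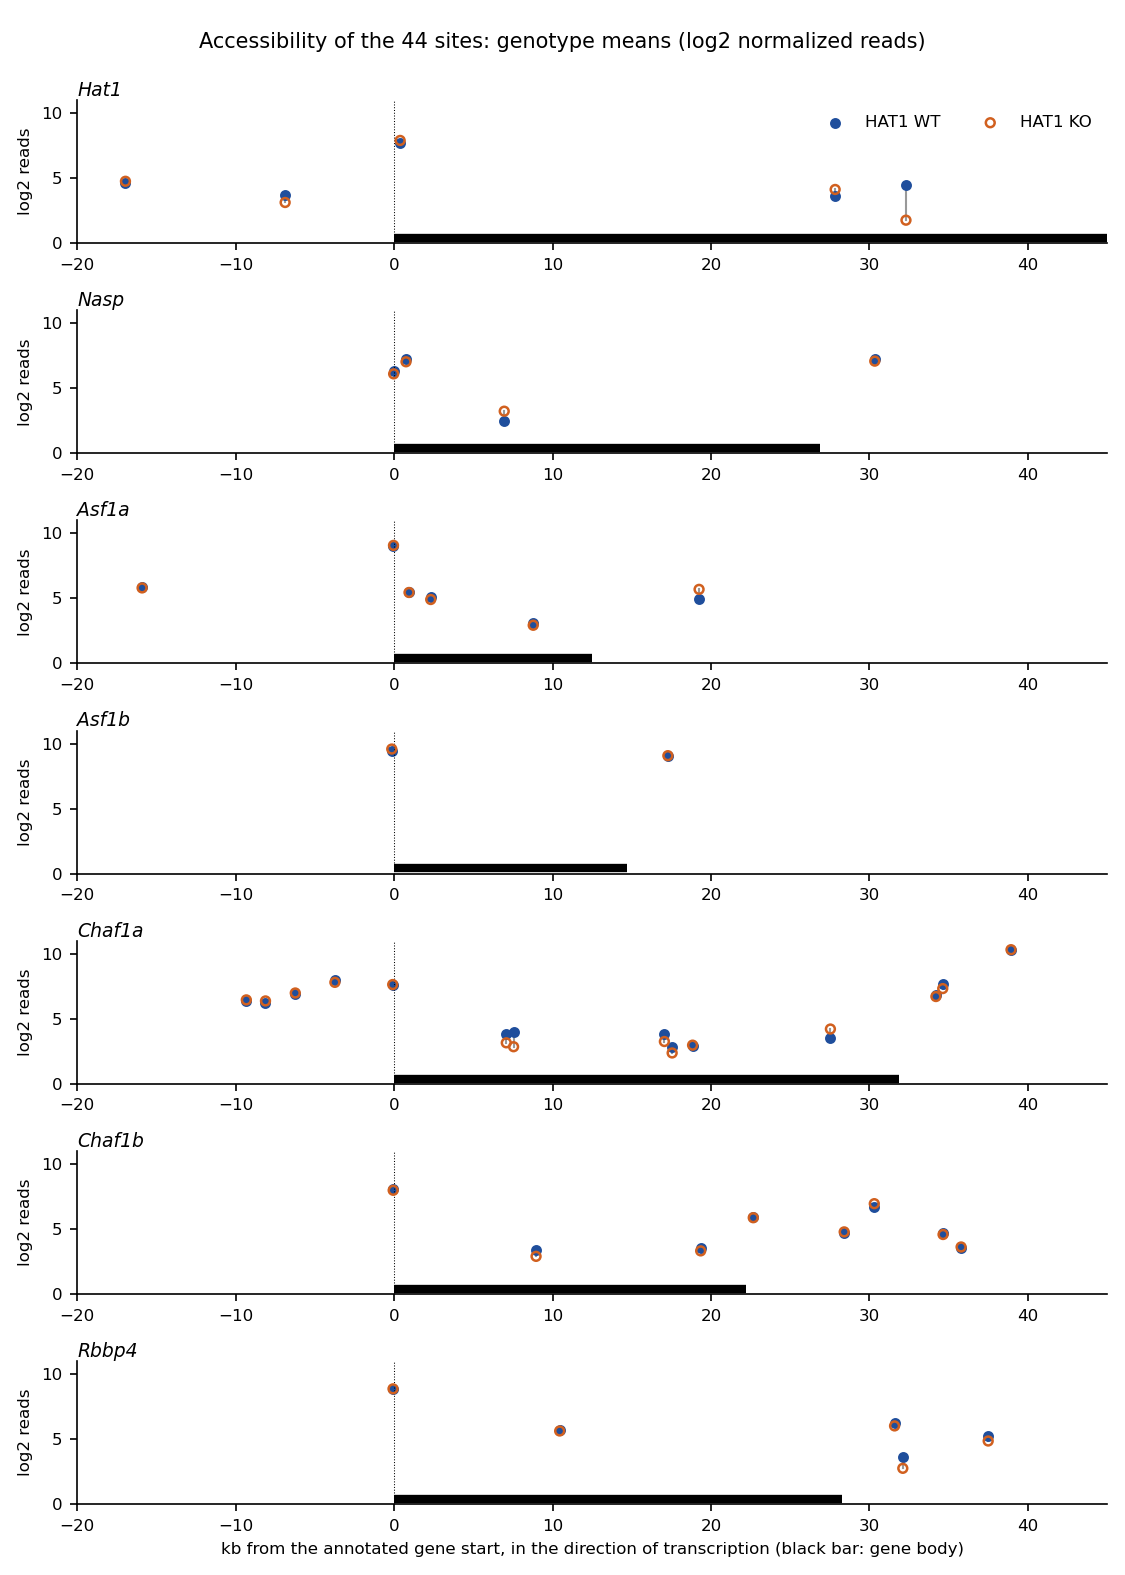
Log2 normalized reads (vertical axis) of the 44 sites by their distance in kb from the annotated gene start in the direction of transcription, 1 panel per gene. Filled blue points are HAT1 WT means and open orange points HAT1 KO means, each over 3 lines, with a grey line joining the pair and a black bar for the gene body, which at Hat1 runs past the edge; the pairs nearly coincide at the starts, and the widest gap, 4.46 against 1.77, is at exon 7 of Hat1.

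Nasp (ENSMUSG00000028693.15, chr4:116601052-116627941, - strand), the chaperone that keeps a soluble pool of H3-H4, had the lowest difference and level among the strongest promoter sites of the 7. Its promoter was called as 2 sites, so the level of 1 understates it. Summed over sites within 3 kb of its starts, Nasp had 237 reads in HAT1 WT, above Hat1 at 229. In HAT1 KO it had 210, the lowest of the 7. The promoter site with the higher level (chr4:116626715-116627660) stood at 7.25 in HAT1 WT and 7.04 in HAT1 KO, or 152 against 132 reads. A neighbouring site over the GENCODE start (chr4:116627738-116628198) stood at 6.31 and 6.11. The pair of promoter sites therefore differed by nearly the same amount, -0.21 and -0.20. An intronic site of few reads, 6.95 kb into the gene, stood at 2.45 and 3.24, and its difference of 0.79 was the highest of the 44. A site 30.34 kb from the start, at the Ccdc17 promoter, stood at 7.28 and 7.09.

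Asf1a (ENSMUSG00000019857.7, chr10:53596757-53609225, + strand) and Asf1b (ENSMUSG00000005470.8, chr8:83955507-83970197, + strand) code for the paralogous chaperones that pass H3-H4 to the assembly factors. Their promoters were the most accessible of the 7, and both were slightly higher in HAT1 KO. The Asf1b promoter site (chr8:83954917-83955795) stood at 9.46 in HAT1 WT and 9.58 in HAT1 KO, or 704 against 765 reads. The site also lies within 1 kb of the start of the neighbouring gene Gm10644, so its reads cannot be given to Asf1b alone. It had a higher mean level than 99.2% of all sites within 1 kb of a protein-coding start. The Asf1a promoter site (chr10:53596302-53597140) stood at 9.01 and 9.08.

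Asf1a lies inside Mcm9, a gene on the opposite strand, so its sites cannot be assigned to 1 of the 2 genes alone. A weaker site 0.94 kb into Asf1a was at 5.46 in both genotypes. Sites 2.31 and 8.78 kb into the gene stood at 5.08 and 4.92, and at 3.15 and 2.94. Outside Asf1a but inside Mcm9, a site 19.25 kb from the Asf1a start stood at 4.92 in HAT1 WT and 5.70 in HAT1 KO, and one at -15.91 kb stood at 5.86 and 5.81. The former, at 0.78, was the largest difference in either direction among the 26 members with a mean log2 level of at least 5. The other site in the Asf1b window, at the Prkaca promoter, stood at 9.08 and 9.07.

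The genes of CAF-1, the complex that places new H3-H4 behind the replication fork, had promoter differences of 0.00 at Chaf1a and -0.12 at Chaf1b. Both genes also held weak sites inside them. The promoter site of Chaf1a (ENSMUSG00000002835.9, chr17:56040439-56072289, + strand), its large subunit, was at 7.63 in both genotypes (chr17:56040045-56040647). Summed over all sites within 3 kb of an annotated Chaf1a start, which takes in weak sites near starts of shorter transcripts, the difference was -0.12. Inside Chaf1a were 6 further sites of 7.16 to 15.9 reads in HAT1 WT. The 4 that lie within 1 kb of annotated starts of shorter Chaf1a transcripts were all below 0: 3.82 against 3.15 on exon 3, 3.99 against 2.85 beside it, and 3.81 against 3.25 and 2.84 against 2.37 near exon 5. The remaining pair, on exons 7 and 14, stood at 2.87 against 2.97 and at 3.54 against 4.21, so the weak sites of Chaf1a differed in both directions.

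The site at 3.99 and 2.85 (chr17:56047794-56048158) was the other member past a log2 of 1, with 15.9 reads in HAT1 WT and 7.21 in HAT1 KO, 2.20-fold higher in HAT1 WT. Of the bases of the site, 48.8% lie in annotated repeats. A log2 difference below that of this site was found at 3.51% of all tested sites.

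Around Chaf1a, 3 sites in Sh3gl1 stood between 6.22 and 6.94 in HAT1 WT and differed by 0.04 to 0.15, and the Sh3gl1 promoter stood at 7.97 and 7.80. At the Ubxn6 promoter a pair of sites stood at 6.85 against 6.71 and 7.64 against 7.32. The Hdgfl2 promoter, the strongest of the 44 sites, stood at 10.27 and 10.31. The neighbours' promoters in the 7 windows, 6 sites in all, differed by -0.32 to 0.04.

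Chaf1b (ENSMUSG00000022945.12, chr16:93883901-93906115, + strand), the middle subunit of CAF-1, had its promoter site (chr16:93883397-93884291) at 8.09 in HAT1 WT and 7.97 in HAT1 KO. A weak site on exon 8, near the start of a shorter transcript, stood at 3.35 and 2.89, and an intronic site 19.35 kb into the gene at 3.55 and 3.31. Beyond the gene, 4 intergenic sites differed by -0.12 to 0.28, the highest being 6.66 against 6.94. A site in Cldn14 stood at 3.52 and 3.61. No Chaf1b site differed by as much as a log2 of 0.58.

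Rbbp4 (ENSMUSG00000057236.10, chr4:129307100-129335370, - strand) codes for the histone-binding WD40 protein shared by CAF-1 and several deacetylase and Polycomb complexes. Its promoter site (chr4:129334793-129336078), which it shares with the start of Zbtb8os on the opposite strand, stood at 8.84 and 8.86. A site 10.45 kb into the gene, on an exon of a transcript that retains an intron, stood at 5.72 and 5.62. The 3 remaining sites of its window lie in Sync, beyond the 3′ end of Rbbp4, at 5.20 against 4.85, 6.27 against 6.01 and 3.59 against 2.75. The last has 62.0% of its bases in annotated repeats, and its difference of -0.84 was the lowest of the window.

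Per length of site, the promoter levels in HAT1 WT ran from 161 normalized reads per kb at Nasp to 801 at Asf1b. Between them lay Hat1 at 288, Chaf1b at 304, Chaf1a at 329, Rbbp4 at 356 and Asf1a at 614. Without a spread between lines it cannot be said which neighbours in this order differ. Summed over all sites of a window, the ratio of HAT1 KO to HAT1 WT reads ran from 0.883 at Nasp to 1.06 at Hat1 and Asf1a, with 1.05 at Asf1b, 0.985 at Chaf1b, 0.983 at Chaf1a and 0.964 at Rbbp4. For the last 3 the direction depends on the scaling: the log2 ratios of -0.02, -0.02 and -0.05 came to 0.04, 0.04 and 0.01 when centred on the median of all sites. The windows also hold promoters of neighbours: Hdgfl2 gave 1235 of the 2347 HAT1 WT reads at Chaf1a, and Prkaca 541 of 1245 at Asf1b. Over the gene bodies with 1 kb on each side, the log2 ratios were 0.11 at Hat1, -0.17 at Nasp and 0.05 at Asf1a. On the same basis they were 0.12 at Asf1b, -0.07 at Chaf1a, -0.12 at Chaf1b and 0.01 at Rbbp4.

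By kind of position, the 44 sites were 9 at main promoters of the members, 5 at internal starts of members, 4 on other exons, 5 in introns, 9 in bodies of other genes, 6 at neighbours' promoters and 6 between genes. The 5 at internal starts, 4 in Chaf1a and 1 in Chaf1b, were all below 0, at -1.14 to -0.46. The 9 at main promoters had a median of 0.00. All 14 sites inside the genes and away from the main promoters had a median of 12.1 reads in HAT1 WT and 9.16 in HAT1 KO, with 10 below 0 and 4 above. Of all tested sites at levels of 3 to 4, 52.7% were below 0, and of all sites near protein-coding starts 61.6%. Among the 14 sites, 6 overlapped exons of coding transcripts.

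Of the 20 members within 1 kb of any protein-coding start, 1 was lower by at least 1 and 0 were higher, against 2.02% and 1.07% of the 32204 such sites in the table. With a log2 difference of at least 0.58 in place of 1, 5 of the 44 members were lower and 3 higher, against 15.0% and 10.1% of all tested sites. The median log2 difference of the members was -0.085, beside -0.06 over all tested sites and -0.08 over sites near protein-coding starts. Below 0 were 25 members (56.8%), against 54.98% of all tested sites, with 17 above 0 and 2 at 0.

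**Figure D2:**
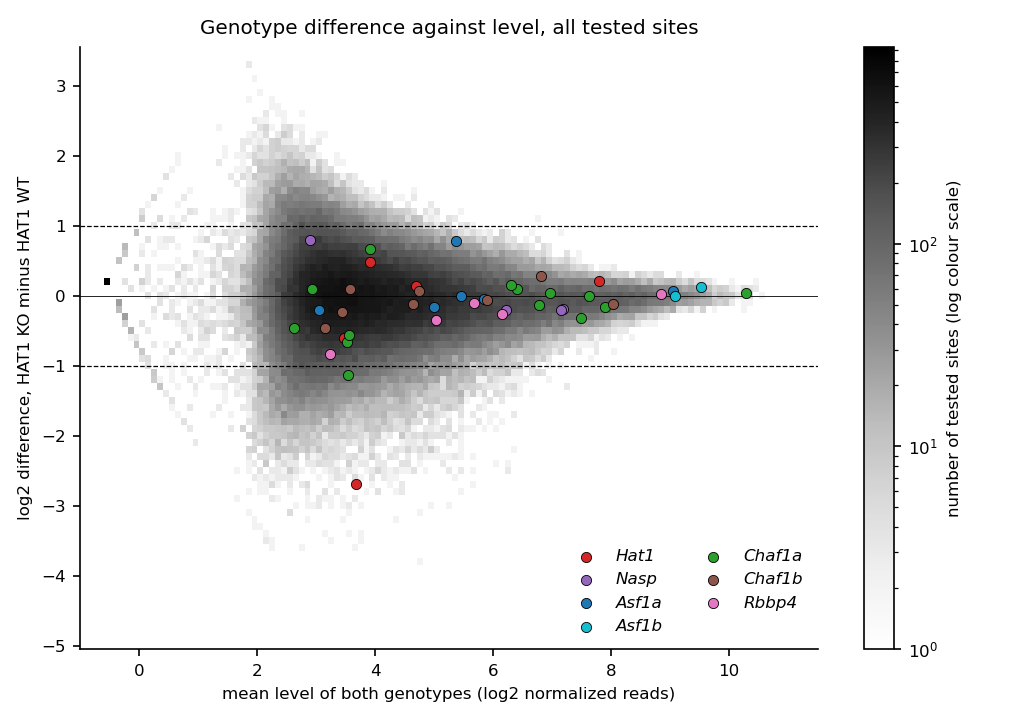
Log2 difference, HAT1 KO minus HAT1 WT (vertical axis), against the mean log2 level of both genotypes (horizontal axis). Grey squares count all 229903 tested sites on a log colour scale, coloured points are the 44 members by gene, and dashed lines mark a log2 difference of 1 and -1; the members narrow towards 0 as the level rises, as all sites do, and the Hat1 exon 7 site lies lowest at -2.69.

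The size of a difference went with the level of the site. The median member had 48.4 normalized reads in HAT1 WT and 50.6 in HAT1 KO, and the median tested site 14.5 and 13.8. The 26 members with a mean log2 level of at least 5 differed by -0.35 to 0.78, and the 18 below it by -2.69 to 0.79. Over all tested sites the 5th to 95th percentile of the difference was -1.02 to 0.84 at levels of 3 to 4 and -0.27 to 0.17 at levels of 8 to 9. Both lower members had a level of 3 to 4, where each genotype mean rests on few reads.

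To place the genes relative to domains of lowered accessibility, the log2 difference was averaged over 25 neighbouring sites, the window of the study's methods, and set against their cutoff of -0.58. None of the 7 promoters lay near that cutoff. The mean of the 25 sites centred on the promoter was -0.15 at Hat1, -0.09 at Nasp, -0.05 at Asf1a, -0.14 at Asf1b, -0.09 at Chaf1a, 0.18 at Chaf1b and -0.16 at Rbbp4. At Hat1 those 25 sites took in the exon 7 site at -2.69, and 12 of the 25 were below 0. With 51 sites the mean there was -0.04. Over all windows the median was -0.05, the 10th to 90th percentile -0.25 to 0.12, and 2.26% were below the cutoff. The Chaf1b promoter, itself at -0.12, thus sat among sites that were on average higher in HAT1 KO.

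The nearest window below the cutoff was 1.13 Mb from the Asf1a promoter and 1.62 Mb from that of Chaf1a. For Chaf1b, Nasp and Asf1b it was 4.37, 5.20 and 5.56 Mb away, and for Hat1 and Rbbp4 10.7 and 17.9 Mb. Within 1.5 Mb of the starts, only the Asf1a trace crossed the cutoff, reaching -0.90 at 1.36 Mb. The lowest means of the other 6 genes in that range ran from -0.54 at Nasp to -0.26 at Hat1.

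**Figure D3:**
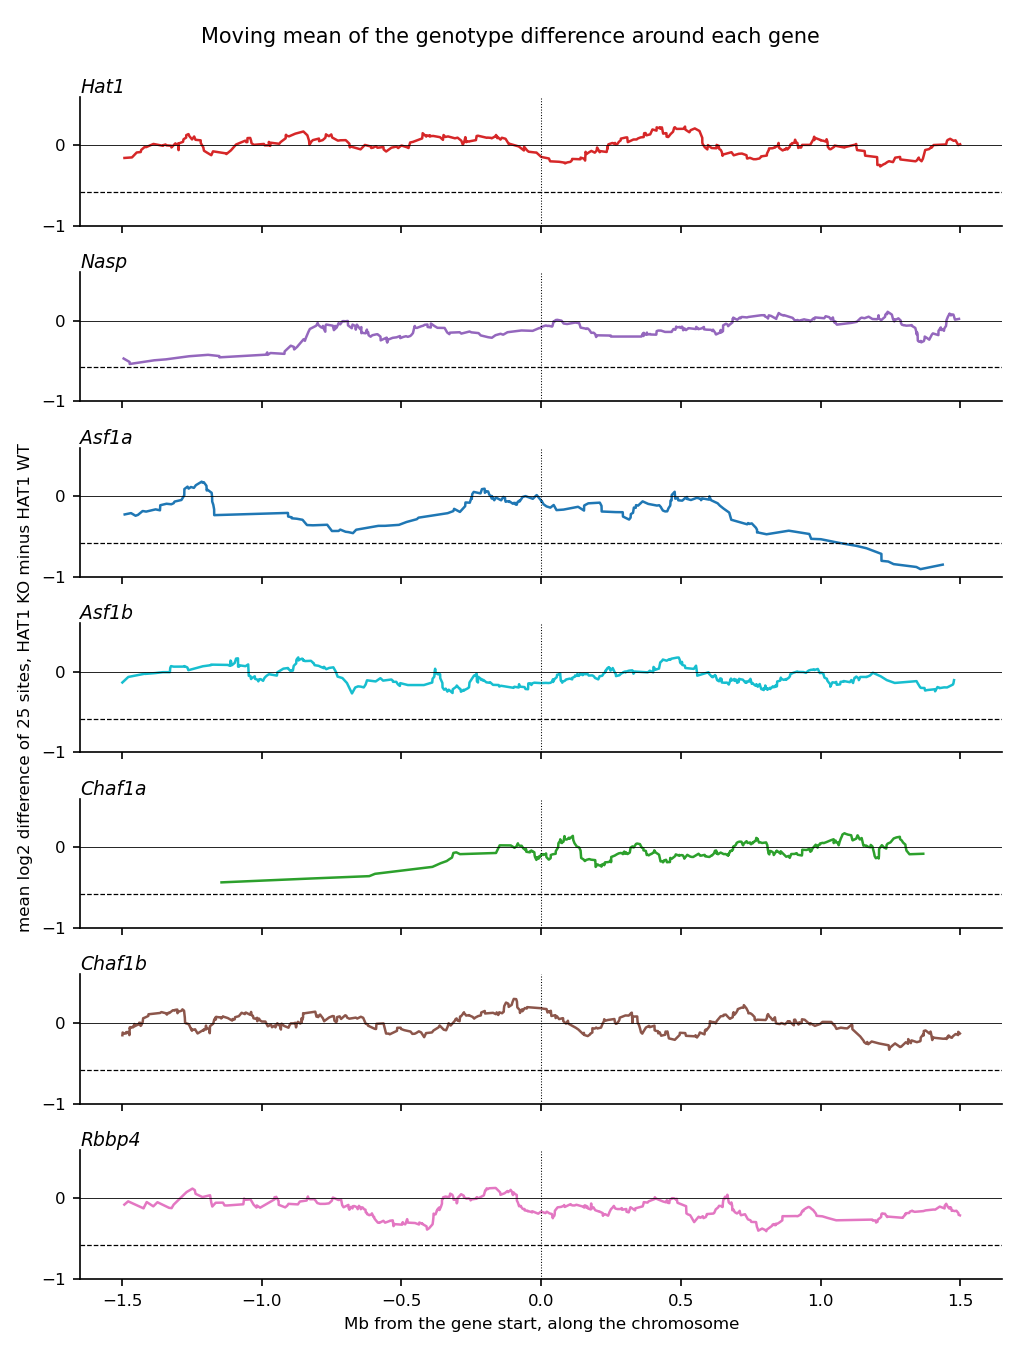
Moving mean of the log2 difference, HAT1 KO minus HAT1 WT, over 25 neighbouring sites (vertical axis) within 1.5 Mb of each gene start (horizontal axis, Mb along the chromosome), 1 panel per gene. The dotted line is the gene start and the dashed line the cutoff of -0.58; the traces lie near 0 at all 7 starts, and that of Asf1a passes below the cutoff farther out, to -0.90.

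The genes of the wider histone pathway, taken from 4 lists, also showed small differences at their promoters. All 44 genes of these lists had a promoter site, and 0 of 44 differed by at least 1 or by at least 0.58 in either direction. Of all sites within 1 kb of a protein-coding start, 9.02% were lower and 4.67% higher by at least 0.58, and among all sites at a mean log2 level of 8 to 9, which many of these promoters reach, 7 of 3329 were lower and 0 higher by as much, so counts of 0 are near those of any strong site. Their median log2 difference was -0.025, with 27 below 0 and 16 above. The median was -0.06 over all tested sites, -0.08 over sites near protein-coding starts and -0.04 over all sites at levels of 8 to 9. Of the sites near protein-coding starts, 61.6% were below 0. Among 10 genes that modify histones, Setdb1, an H3 K9 methyltransferase, stood at 5.49 in HAT1 WT and 5.13 in HAT1 KO, the lowest difference of all at -0.36. Kat2a, an acetyltransferase, was the highest at 0.25, from 5.61 to 5.86. Crebbp was at -0.14 and Hdac2 at 0.17. The lowest and the highest thus both came from the weakest promoters of the list. Summed over all sites within 3 kb of its starts, Kat2a came to 0.03, and Hdac2 was then the highest at 0.17. Setdb1 stayed the lowest at -0.38.

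Among 12 genes of replication-coupled handling, Ipo4, an importin for H3-H4, was at -0.15 and Pole3, an H3-H4-binding subunit of the leading-strand polymerase, at -0.13. At the other end were Kpnb1 at 0.08 and Hspa8 and Pole4, both at 0.06. Rbbp7, the paralogue of Rbbp4, stood at 8.21 and 8.17. Among 10 genes of H3.3 and CENP-A deposition, the H3.3 chaperone Daxx and Mis18a, which prepares centromeres for CENP-A, were at -0.15, the HIRA partner Cabin1 at 0.15 and the DAXX partner Atrx at 0.05. Among 12 chaperones of H2A-H2B or of histones in general, Npm3 was at -0.30, Supt16, a subunit of FACT, at -0.19, Supt6 at 0.06 and the H2A.Z chaperone Anp32e at 0.09. Summed over all sites within 3 kb of the starts, Npm3 came to -0.15 and Cabin1 to 0.05, while Mis18a stayed low at -0.16.

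**Figure D4:**
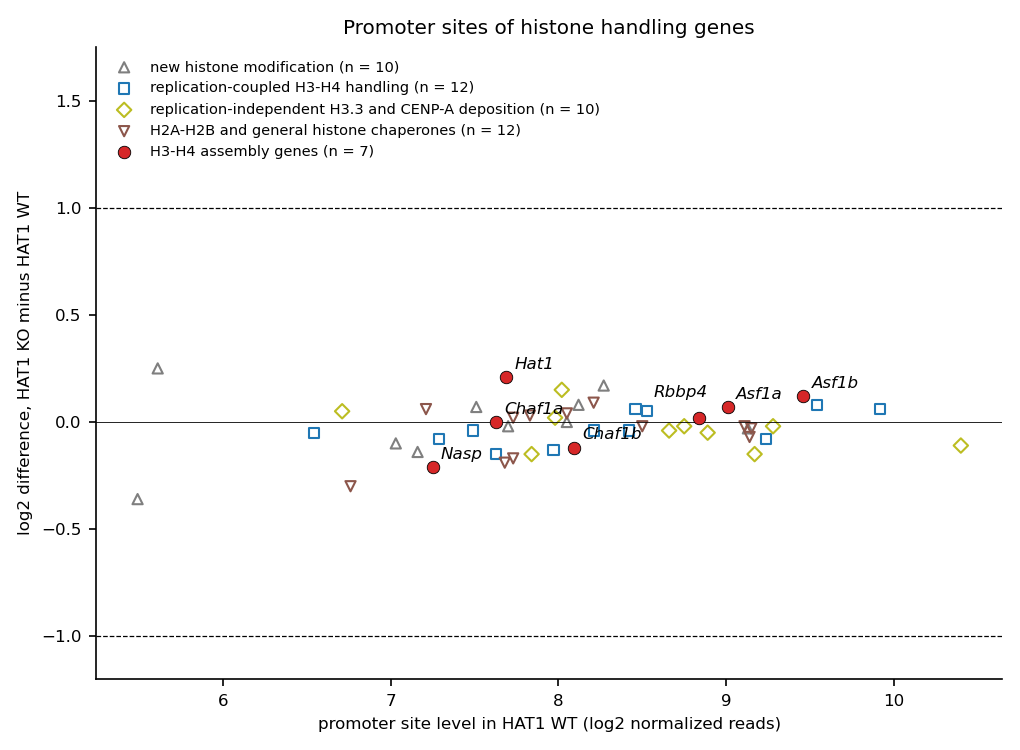
Log2 difference of the promoter site, HAT1 KO minus HAT1 WT (vertical axis), against its log2 level in HAT1 WT (horizontal axis) for the 7 H3-H4 assembly genes (filled red, named) and the 44 genes of the 4 other lists (open symbols). Dashed lines mark a log2 difference of 1 and -1; every promoter lies between -0.36 and 0.25.

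The sequence of the members was read in the 200 bases around each midpoint. The members had a median GC content of 54.25% and 4.5 CpGs, against 50.0% and 2 over all sites. The SP/KLF letters were in 11 of the 20 members near protein-coding starts (55.0%), against 32.2% of all such sites, and in 1 of the 24 farther members (4.17%), against 4.83%. The AP-1 letters were in 8 of those 24 (33.3%), against 25.2%. CCAAT on either strand was in 12 of 44 (27.3%), against 21.7% of all sites, but in 300 bases around the midpoint it was in 13 (29.5%), against 31.3%. Of the pair of lower members, the Chaf1a site held the AP-1 letters and the Hat1 exon 7 site an ATTGG just past the exon. At least 50% of the bases lay in annotated repeats at 2 of the 44 (4.55%), against 3.86% of all sites.

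Markers of cell types were read at promoter sites, which show that a promoter was open and not that the gene was expressed. Fibroblast markers had a promoter site in 12 of 12 genes, with a median of 154 reads in HAT1 WT and 162 in HAT1 KO, led by Vim at 9.29 and 9.34. Lower medians in HAT1 WT were found for epithelial markers (24.2, 4 of 7 genes, led by Krt8, with none at Krt18, Krt5 or Krt14), endothelial markers (70.5, 5 of 6, led by Kdr, with none at Tie1), haematopoietic markers (53.8, 6 of 6, led by Cd68), neural markers (68.9, 6 of 6, led by Tubb3) and skeletal muscle markers (11.2, 5 of 6, led by Ckm, with none at Myf5). The haematopoietic markers were higher in HAT1 KO at 5 of 6 promoters, with 0 below 0 and a median log2 difference of 0.35, and the muscle markers lower at 5 of 5, with a median of -0.41. Of all sites near protein-coding starts 61.6% were below 0, and the muscle promoters were weak, with 8.5 to 38.9 reads in HAT1 WT. In the other lists promoters went both ways, from -0.78 for an endothelial marker to 0.95 for a neural marker. In a bulk sample, more cells of a type and more open chromatin per cell cannot be told apart, and the part of such cells in the values above was not tested.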

How the data were processed

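ATAC-Seq libraries of 3 HAT1 WT and 3 HAT1 KO pMEF lines were processed by the authors with the ENCODE pipeline, alignment to mm10 with Bowtie2, peak calling with MACS2 and comparison with DiffBind 2.14.0. The authors deposited 1 table with a row per tested site, and its levels are log2 of mean normalized reads per genotype, given to 2 decimals. The library normalization and the consensus rule for sites are not given in the sources used here. The deposited overall mean, fold change, P and FDR columns were not used. Log2 levels were subtracted, HAT1 KO minus HAT1 WT, and turned into reads as powers of base 2 for sums and ratios.

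Promoter sites were those within 1 kb of a GENCODE vM21 start, the one with the highest mean level where there were several. Sequences came from GRCm38, the mm10 assembly. Its chromosomes were compared with those of the sites by name, and no site ran past a chromosome's end. Motifs were exact matches on both strands. Sites were matched with Python 3.11.15, pandas 2.3.3 and numpy 2.4.6 and drawn with matplotlib 3.10.9, and the counting of sites past the fold was tested on simulated data.

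All member genes and sites are named. Of the 4 other gene lists, the 2 lowest and 2 highest promoters of each are named, with ties, and of the 6 marker lists the most accessible promoter. Rbbp7 was named in addition, after its value was seen. Members, lists and tests were chosen with earlier results of these data known.

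The sequence of the Chaf1a site is not reported here.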

Additional observations from a re-analysis of the deposited data

How the results depend on the processing

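No paired analysis was possible because the values used are genotype means and no result comes from a test, and for the same reason no line could be left out. The alternatives were centring on the median of all sites, scaling to equal totals, adding 5 reads, dropping sites under 16 reads, a fold of 0.58, sites of the gene body with 1 kb on each side, all sites within 3 kb for a promoter, windows of 51 sites, and 300 bases of sequence. Each of 35 results was recomputed under those that apply to it, 105 values in all. No log2 value moved by more than 0.13, but most are themselves no larger, and 7 of 83 changed sign, all in the summed reads of Chaf1a, Chaf1b and Rbbp4. The mean around the Hat1 promoter went from -0.15 to -0.04 with 51 sites, and the median of the members from -0.085 to -0.005 without sites under 16 reads. Motif counts in 300 bases stayed within 1.5 times those in 200. The count of members lower by at least 1, which was 2, came to 1 with 5 reads added and to 1 with sites of at least 16 reads, and in both cases the Chaf1a site was the one lost. At a fold of 0.58 it came to 5, and the count of higher members, which was 0, came to 3. Few reads per genotype limit how precise the values of the weak sites are.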
